A study of Mus musculus with 10 samples.

Results

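P1 cells are the interstitial adipocyte precursor cells (APCs) marked by Pi16 and Dpp4. They were examined in single-cell RNA-sequencing of the stromal vascular fraction (SVF) of inguinal white adipose tissue (iWAT), the cells that remain once the adipocytes have been removed from digested fat. A cell counted as stromal when at least 4% of its unique molecular identifiers (UMIs) came from Col1a1, Col1a2, Col3a1, Dcn, Gsn, Lum, Pdgfra and Serpinf1. A stromal cell counted as P1 when it held at least 2 UMIs of Pi16, Dpp4, Sema3c, Fndc1, Smpd3, Anxa3 and Akr1c18 together, more of these than of the P2 genes (Col15a1, Fgf10, Icam1, Lpl, Cdh11, Adam12 and Col5a3), and more than of the P3 genes (Inmt, Igfbp3, Gdf10, Fmo2, Clec11a, C7, Chrdl1 and F3). The rule found 395 P1 cells among 10914 cells, of which 2532 were stromal. P2 and P3 cells, chosen by the same form of rule, numbered 889 and 106.

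The single-cell part of the study compared a Bbs8 KO mouse (Bbs8 -/-, without the BBSome subunit BBS8) with a Bbs8 WT mouse, both aged 7 weeks and lean (KO and WT from here on). The study asked whether P1 cells take on a fibrogenic state when cilia are impaired. With more mice, the paper reported a lower P1 share of the APCs in KO by flow cytometry. Its bulk RNA-sequencing of sorted P1 cells had higher collagen and other matrix genes in KO. Those measures differ from the shares and sums given here. GEO lists 5 samples per genotype, but the series names 1 mouse per genotype, so each mouse was taken as 1 sample and no difference between the mice was tested. The cells carried 10 set codes, 5 per genotype, each with a number (KO5, KO6, WT3 or WT4) that was not explained. Values per barcode set show the technical spread and, if the numbers stand for animals, differences between animals as well. P1 cells numbered 298 in KO, with 50 to 67 per set, and 97 in WT, with 9 to 31 per set. Their sums held 160937 and 49059 UMIs.

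In iWAT, P1 cells lie in the reticular interstitium and are regarded as multipotent progenitors. P2 cells are preadipocytes committed to the adipogenic lineage, and P3 cells, also called Aregs, restrain adipogenesis. In cell sorting, CD55 and CD26 (the product of Dpp4) mark P1, CD54 (Icam1) marks P2 and CD142 (F3) marks P3. Fibroblasts with Pi16 and Dpp4 are known from many organs.

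The 7 P1 genes are spread over several chromosomes and have different roles. On mm10 with the GENCODE annotation, Pi16, which encodes a peptidase inhibitor, spans chr17:29317680-29330593 on the plus strand, and Dpp4, a cell-surface dipeptidyl peptidase, spans chr2:62330073-62412231 on the minus strand. Sema3c, a secreted semaphorin, spans chr5:17574281-17730268, and Anxa3, an annexin, lies on the same chromosome at chr5:96793339-96845966, both on the plus strand. Fndc1, with fibronectin type III domains, spans chr17:7738569-7827302, Smpd3, a neutral sphingomyelinase, spans chr8:106252548-106337988 and Akr1c18, an aldo-keto reductase that inactivates progesterone, spans chr13:4132615-4150654, all on the minus strand. RefSeq promoters of 300 bases (GRCm38.p6, 250 bases before to 50 after the start) were found for 5 of the 7, and their starts can differ from the GENCODE gene starts. Both namesakes and Sema3c are shown because these genes define the cells and are read together. Capitals mark the motifs searched on both strands, which were CCACCCA, the core of the GLI motif, TATAAA and GGGCGG.
Pi16, chr17:29318632-29318931, plus strand: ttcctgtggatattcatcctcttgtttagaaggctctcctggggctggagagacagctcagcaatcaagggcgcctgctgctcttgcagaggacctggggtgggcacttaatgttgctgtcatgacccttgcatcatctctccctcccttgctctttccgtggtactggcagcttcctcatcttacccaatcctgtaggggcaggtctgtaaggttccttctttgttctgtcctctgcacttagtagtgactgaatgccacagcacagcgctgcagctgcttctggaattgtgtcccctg
Dpp4, chr2:62412182-62412481, minus strand: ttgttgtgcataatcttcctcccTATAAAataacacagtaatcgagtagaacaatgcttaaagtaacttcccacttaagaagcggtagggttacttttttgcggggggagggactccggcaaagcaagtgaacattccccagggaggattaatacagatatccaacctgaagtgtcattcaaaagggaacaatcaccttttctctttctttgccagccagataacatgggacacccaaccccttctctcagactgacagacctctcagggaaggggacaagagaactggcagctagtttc
Sema3c, chr5:17574566-17574865, plus strand: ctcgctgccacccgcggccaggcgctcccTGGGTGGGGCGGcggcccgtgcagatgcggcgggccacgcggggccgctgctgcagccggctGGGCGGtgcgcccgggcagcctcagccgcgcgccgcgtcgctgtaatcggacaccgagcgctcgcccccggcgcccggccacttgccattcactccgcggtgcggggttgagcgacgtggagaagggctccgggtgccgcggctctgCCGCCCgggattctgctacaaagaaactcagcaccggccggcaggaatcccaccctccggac
TATAAA was found in the promoters of Dpp4 and Fndc1, against 13.6% of all 32851 RefSeq promoters. GGGCGG was found for Sema3c, Fndc1 and Akr1c18, against 35.7% of all, and CCACCCA for Sema3c alone of the 5, against 9.3%. In the Sema3c window a reverse-strand match of CCACCCA shares 1 base with a GGGCGG match. The Pi16 window held none of the 3 motifs. These are matches of letters, and no binding was measured.

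Pi16 was detected in 64.4% of KO and 68.0% of WT P1 cells, against 2.56% and 2.02% of lymphocytes, cells that should lack it and that show the level of free RNA. Lymphocytes were cells with under 2% stromal UMIs and at least 2 UMIs of T and B cell markers. Median depths were 375 and 356 UMIs in P1 cells and 327 and 291 in lymphocytes. Since the rule used these genes, each was also measured in cells chosen by the other 6 (plot of the left-out P1 genes), as CPM, the UMIs of a gene scaled to a common total of all UMIs, with exact Poisson intervals of 95%. Left-out Pi16 stood at 2836 CPM (2558 to 3137) in KO and 3622 CPM (3043 to 4279) in WT P1 cells, against 191 and 355 CPM in P2, 235 and 304 CPM in P3 and 67.7 and 46.7 CPM in lymphocytes. Left-out Dpp4 stood at 956 CPM (804 to 1128) and 894 CPM (626 to 1238) in P1 cells, against 153 and 151 CPM in P2 and 119 and 86.7 CPM in P3. All 7 genes were highest in P1 cells in both mice when left out of the choice. The weakest was Akr1c18 in WT, at 167 CPM (71.9 to 328), where 0 UMIs in P3 cells allow up to 130.1 CPM. Dpp4 was also found in KO lymphocytes, at 118 CPM (94.9 to 145), close to the 119 CPM of KO P3 cells, and CD26 is also known from T cells.

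**Figure D1:**
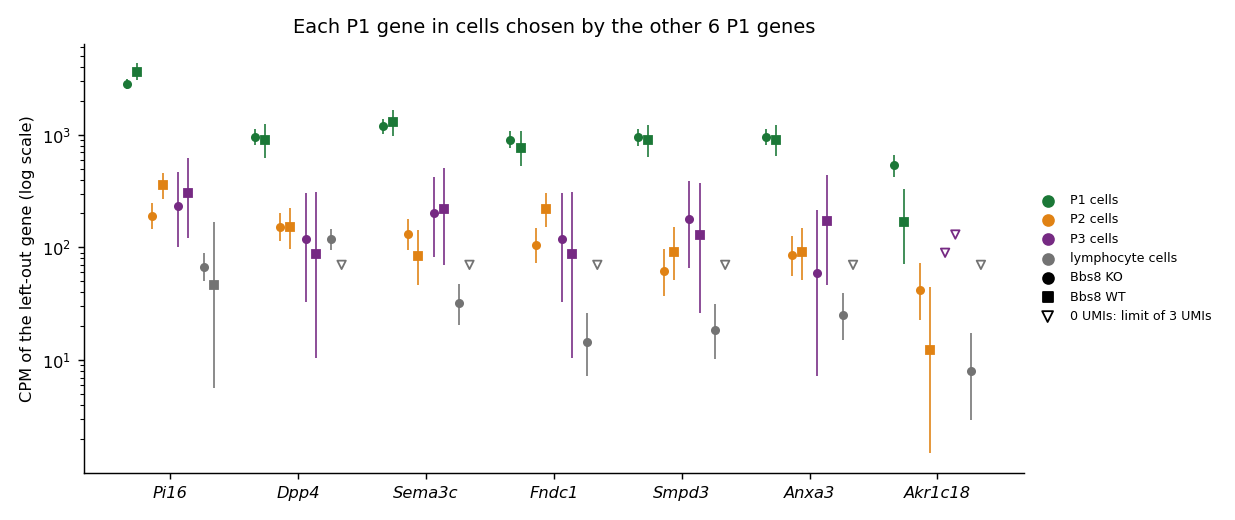
Level of each P1 gene (CPM, log axis) in P1, P2, P3 and lymphocyte cells chosen without that gene, for the KO mouse (circles) and the WT mouse (squares). Bars are 95% Poisson intervals and open triangles mark 0 UMIs at the level that 3 UMIs would give; left-out Pi16 in P1 cells lies at 2836 and 3622 CPM and every gene is highest in P1 cells.

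Many P1 cells lay near the threshold. Of the 395, 120 (30.4%) had a P1 sum of exactly 2 UMIs, 72 had 3, 46 had 4 and 157 (39.7%) had at least 5, with a highest sum of 39. Just outside, 148 stromal cells had a P1 sum of 1 above both other sums, and 90 had at least 2 but did not exceed the P2 or P3 sum. Of the cells under the stromal minimum, 281 met the P1 condition, 86 of them with a stromal share of 3 to 4%, while 77 members lay at 4 to 5%. No P2 or P3 UMI was found in 176 members (44.6%). Of the members, 58 were called on 1 of the 7 genes, 143 had 2, 90 had 3, 57 had 4 and 47 had 5 or more. P1 as defined here is thus a range along a count.

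P1 cells formed a larger part of the cells called P1, P2 or P3 in the KO mouse and a smaller part of the whole SVF. Among P1, P2 and P3 cells together, 32.9% (29.8 to 36.1, exact Clopper-Pearson) were P1 in KO and 20% (16.6 to 23.9) in WT, a difference of 12.9 percentage points (7.94 to 17.6). The KO sets lay at 38.1, 31.1, 26.8, 33.3 and 35.8%, and the WT sets at 18.8, 25.3, 14.8, 19.7 and 20.4%, so the sets did not overlap. Of all stromal cells, 16.9% (15.1 to 18.7) and 12.7% (10.4 to 15.3) were P1, a difference of 4.16 points (1.07 to 7.08) with overlapping sets (13.9 to 20.1% and 10 to 15.7%). Of all SVF cells, 3.32% (2.96 to 3.71) and 5.03% (4.1 to 6.1) were P1, a difference of -1.71 points (-2.84 to -0.701), and these sets did not overlap either. Stromal cells made up 19.7% of all cells in KO and 39.6% in WT, so the direction of the P1 share turned with the denominator. P2 cells made up 31.1% and 44.4% of stromal cells, P3 cells 3.28% and 6.28%, and stromal cells that met none of the rules 48.8% and 36.6%. The last are not in the share among P1, P2 and P3 cells. Of stromal cells, 19.9% in KO and 17.5% in WT had a P1 sum of at least 2, whatever the other sums. That is a difference of 2.31 points (-1.11 to 5.58). Of these cells, 53 of 351 in KO and 37 of 134 in WT did not exceed the P2 or P3 sum.

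**Figure D2:**
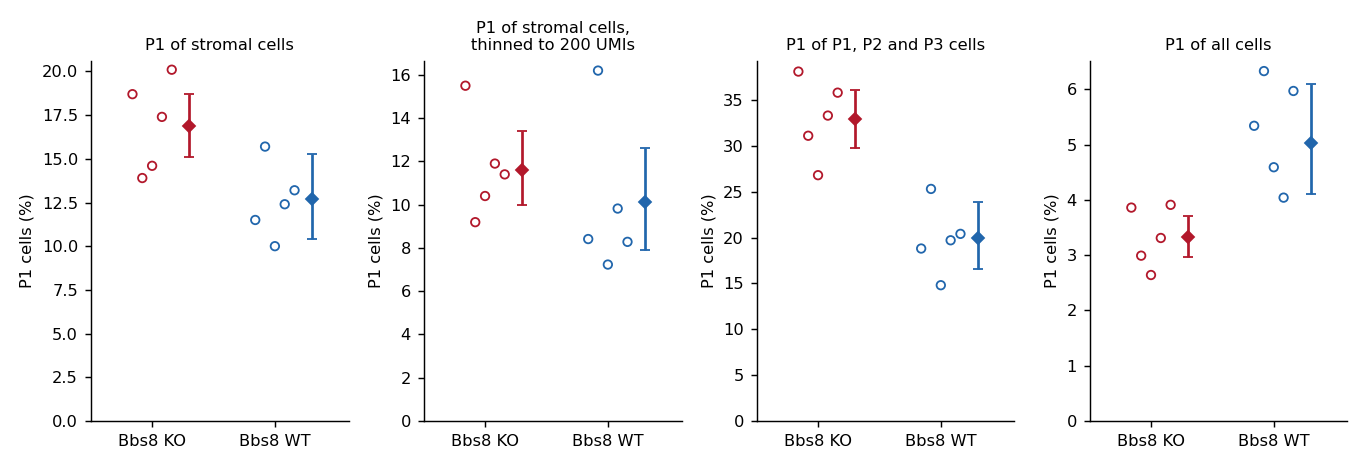
P1 cells in % of stromal cells, of stromal cells thinned to 200 UMIs, of P1, P2 and P3 cells and of all cells. Open circles are barcode sets, diamonds the pooled mouse with a 95% Clopper-Pearson interval; the sets of the mice do not overlap for the share among P1, P2 and P3 cells (26.8 to 38.1% and 14.8 to 25.3%) and lie in the opposite order for the share of all cells (2.64 to 3.91% and 4.04 to 6.33%).

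A rule that needs 2 UMIs finds more members in deeper cells. In 5 bins of stromal cells by UMI count, from 127 to 191 UMIs up to 545 to 2791 UMIs, the P1 share was 8.04, 11.4, 18.8, 20.2 and 27.4% in KO and 7.23, 9.94, 11.5, 15.2 and 17.4% in WT. It was thus higher in KO in every bin, with differences from 0.809 to 10 points, of which the intervals of 3 bins held 0. Thinned to 200 UMIs per cell, with 69.7% of KO and 80% of the WT cells kept, 11.6% and 10.1% of stromal cells were P1, a difference of 1.57 points (-1.43 to 4.38). The stromal minimum mattered more, since the difference in the P1 share of stromal cells was 0.214 points at 2% of UMIs and 13.7 points at 8%, where 114 and 29 P1 cells were left. The difference among P1, P2 and P3 cells was 11.6 and 19.8 points at these minima and 10.8 points after thinning. All intervals here are for counting error, and the spread between animals is not in them.

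Beyond the rule genes, Fbn1, Igfbp5, Prss23 and Lrrn4cl were higher in P1 cells than in P2 and P3 cells of both mice. Of 908 genes outside the rule lists with at least 30 UMIs in P1 cells, 33 (3.63%) were at least 2-fold higher than in P2 and in P3 cells in both mice (log2 ratio of CPM + 20). A minimum in P1 cells favours genes that are high there, and with the minimum set in P2 and P3 cells instead 19 of 2969 genes (0.64%) were. The cells were chosen by marker genes, so these values are a description. Fbn1, the fibrillin of microfibrils, lay at 5282 CPM in KO and 4464 CPM in WT P1 cells, against 1618 and 1396 CPM in P2 and 1374 and 911 CPM in P3. Its log2 ratios were 1.69 and 1.66 over P2 and 1.93 and 2.27 over P3, and it was higher in P1 in 10 of 10 sets, which held for 4.41% of genes against P2 and 1.98% against P3. Igfbp5, a binding protein for insulin-like growth factors, lay at 2498 and 2324 CPM in P1, 672 and 867 CPM in P2 and 777 and 824 CPM in P3. Prss23, a secreted serine protease, lay at 1361 and 1325 CPM in P1 and at most 508 CPM in P2 and P3. Lrrn4cl lay at 590.3 and 673 CPM in P1, 98.9 and 92.3 CPM in P2 and 0 UMIs in P3 cells, where 0 allows up to 89.6 and 130.1 CPM. The lowest of the 4 ratios was 0.96 for Prss23 without KO6_p1 and 0.49 for Igfbp5 in cells thinned to 200 UMIs.

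The sort marker Cd55, which protects cells from complement, lay at 423 CPM in KO and 224 CPM in WT P1 cells, against 112 and 61.5 CPM in P2 and 59.7 and 43.4 CPM in P3. Its sets ranged from 178 to 527 CPM in KO and from 0 to 338 CPM in WT. Lymphocytes held 192 CPM of Cd55 in KO and 23.3 CPM in WT, and the part of free RNA in its level was not tested. Among the 15 genes with the largest ratios were Ackr3, an atypical receptor that scavenges CXCL12 (224 CPM in both mice), Edn1, the endothelin precursor (205 and 143 CPM), and Cxcl13, a chemokine for B cells (193 and 163 CPM). Creb5, a transcription factor of the CREB family, lay at 292 and 245 CPM in P1, 39.6 and 18.5 CPM in P2 and 59.7 and 0 CPM in P3. The other members were Efhd1, Gas7, Arl4d, Tmem100, Kif2a and Aspn, the last a small leucine-rich proteoglycan that also stood on the list of P3 regulators. Tmem100 lay at 485 and 509.6 CPM in P1 and 52.7 and 49.2 CPM in P2, and was higher than in P2 in all 10 sets. Leaving out 1 set also took the lowest ratio under 1, to 0.58 for Aspn and 0.53 for Cd55 without WT4_p2, and to 0.72 for Arl4d and 0.86 for Edn1 without WT4_p3. In cells thinned to 200 UMIs, 6 genes met the 2-fold condition, and the lowest of the 4 ratios turned to -0.12 for Aspn, -0.04 for Cd55 and -1.11 for Creb5, and was 0.06 for Edn1. That of Tmem100 was 0.23 at a stromal minimum of 8%.

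**Figure D3:**
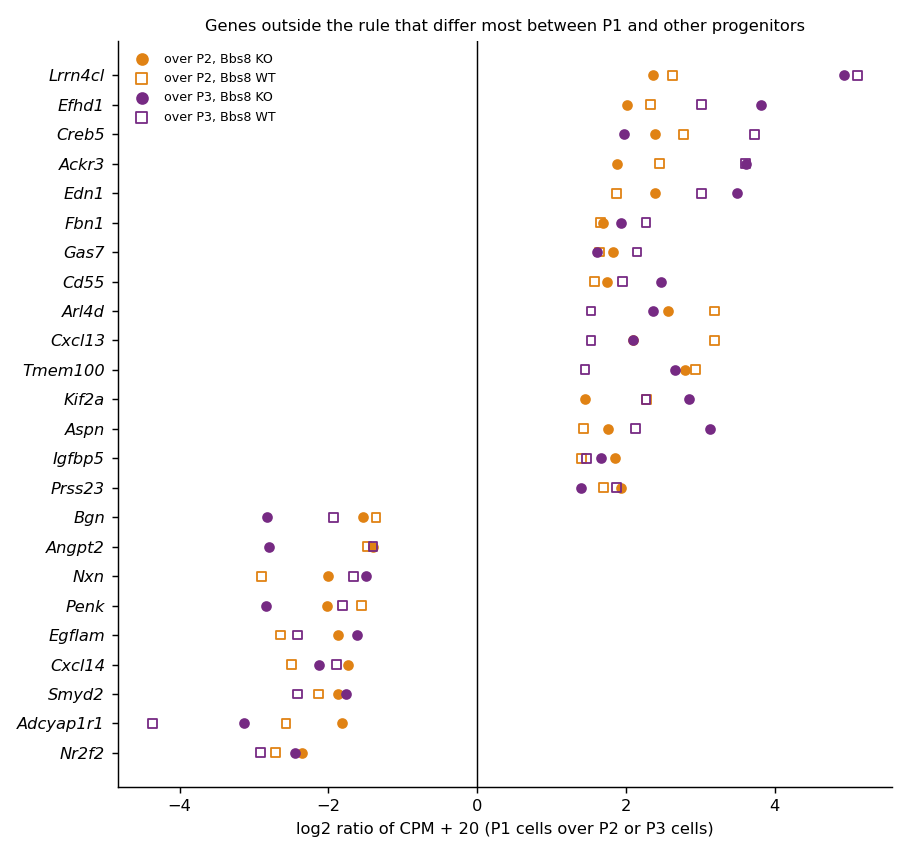
Log2 ratio of CPM + 20 of P1 cells over P2 cells (orange) and over P3 cells (purple) in the KO mouse (filled circles) and the WT mouse (open squares). Shown are 15 genes with the highest and 9 with the lowest ratios; Fbn1 lies between 1.66 and 2.27 and Penk between -2.84 and -1.56.

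Bgn and Penk were lower in P1 cells than in P2 and P3 cells. Of the 908 genes with at least 30 UMIs in P1 cells, 3 (0.33%) were at least 2-fold lower than in P2 and P3 cells in both mice, and these were Bgn, Igfbp7 and Sparcl1. The other low genes given here had fewer UMIs in P1 cells and were taken from genes with at least 30 UMIs in P2 and P3 cells, a minimum that favours genes low in P1, so their values are a description. Nr2f2, which encodes COUP-TFII, had 0 UMIs in P1 cells of both mice, where 0 allows up to 18.6 and 61.2 CPM, and lay at 82.4 and 111 CPM in P2 and 89.6 and 130.1 CPM in P3. Bgn, the proteoglycan biglycan, lay at 143 and 224 CPM in P1, 452 and 609 CPM in P2 and 1135 and 911 CPM in P3, and was lower in P1 in 10 of 10 sets against both. Penk, the enkephalin precursor, lay at 62.1 and 245 CPM in P1, 313 and 763 CPM in P2 and 568 and 911 CPM in P3. Adcyap1r1, the receptor of the neuropeptide PACAP, had 1 UMI in P1 cells of KO and 0 in WT, against 72.5 and 98.4 CPM in P2. Over all alternatives run, the highest of the 4 ratios stayed at or under -0.93 for Bgn and -0.90 for Penk. In thinned cells it turned to 2.23 for Nr2f2, 1.35 for Cxcl14 and 2.49 for Nxn, and came to 0.00 for Adcyap1r1, Angpt2, Egflam and Smyd2, all with at most 3 UMIs per mouse in P1 cells. Without WT4_p2 it was 1.57 for Angpt2 and 0.00 for Nxn and Egflam, without KO6_p1 it was 0.00 for Egflam and -0.87 for Smyd2, and without KO6_p3 it was -0.70 for Nxn.

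Among the other known markers of interstitial progenitors, 22 of 40 genes had at least 30 UMIs. Of these, 13 were at least 2-fold higher than in P2 cells in both mice, against 7.71% of all 908 genes, and 12 were higher than in P3 cells, against 9.36%, while 0 were 2-fold lower than in P2 or in P3 cells, against 1.43% and 1.87%. Their median log2 ratio over P2 was 1.74 in KO and 1.32 in WT, beside 0.11 and 0.19 for all genes. The minimum was set in P1 cells and favours genes that are high there, and the cells were chosen by marker genes. These values are therefore a description. Ly6a, which encodes SCA1, lay at 3710 and 2283 CPM in P1, 966 and 572 CPM in P2 and 2211 and 1431 CPM in P3, and Igfbp6 at 3672 and 3098 CPM in P1 and 1088 and 1255 CPM in P2. Complement C3 was higher in P1 (4666 and 5687 CPM) than in P2 (1104 and 1157 CPM), while P3 cells held 7528 and 7848 CPM. Of 25 further genes of committed preadipocytes, 9 had at least 30 UMIs in P1 cells, a minimum that leaves out genes low there. Of the 9, 5 were 2-fold lower than in P2 in both mice, among them the basement membrane collagen Col4a1 (677 and 876 CPM in P1, 2729 and 3802 CPM in P2), and 1 was 2-fold higher. Against P3 cells, 1 was 2-fold lower (Sparcl1) and 2 were 2-fold higher. The higher genes, named after their values were seen, were Bst2, an interferon-induced membrane protein (261 and 122 CPM in P1, 56 and 49.2 CPM in P2, 29.9 and 43.4 CPM in P3), and, against P3 alone, Postn (1665 and 3037 CPM in P1, 448 and 1344 CPM in P3). Over the 9 genes, the log2 ratios had a median of -1.76 against P2 in both mice, and of -0.30 in KO and -0.03 in WT against P3.

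Between the mice, Pcolce and Sfrp2 were higher and Apoe, Clec3b and the chaperone gene Hsp90b1 lower in KO P1 cells. Of 926 genes with at least 30 UMIs, 72 (7.78%) were at least 2-fold higher and 40 (4.32%) at least 2-fold lower in KO, with a median over all genes of -0.03 (log2). With trimmed-mean (TMM) scaling the median moved to 0.23 and the counts to 117 and 16, and with DESeq2 size factors to 0.10, 96 and 25. All 5 KO sets lay above all 5 WT sets for 29 genes (3.13%), and the reverse held for 10 (1.08%). The WT sets were small, with 3432 to 23662 UMIs, so 0 UMIs in a WT set allows 127 to 874 CPM and sets could not be told apart at low levels. Without the largest of them, WT4_p2, 116 genes were 2-fold higher.

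Pcolce, which enhances the processing of procollagen, lay at 913, 926, 746, 962 and 837 CPM in the KO sets and 201, 407, 0, 211 and 104 CPM in the WT sets. The sets did not overlap, and the pooled log2 ratio was 2.01 (1.19 to 3.21, exact conditional interval of the plain ratio), or 1.15 at a stromal minimum of 8%. In P2 cells it lay at 899.8 and 646 CPM and in P3 cells at 1524 and 867 CPM. Sfrp2, a secreted modulator of Wnt signalling, lay at 1061, 1097, 923, 348 and 713 CPM in the KO sets and 201, 272, 291, 169 and 312 CPM in the WT sets, again without overlap and with a log2 ratio of 1.76 (0.96 to 2.89). P2 cells held 112 and 135 CPM and P3 cells 179 and 86.7 CPM of it, and the difference between the classes was not tested.

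The rule gene Akr1c18 lay at 737, 480, 781, 749 and 744 CPM in the KO sets and 0, 272, 0, 338 and 104 CPM in the WT sets, with a log2 ratio of 1.56 that was 2.39 without WT4_p2 and 3.21 at a stromal minimum of 8%. In cells chosen by the other 6 genes it was 535 and 167 CPM. The rule used all 7 genes, so their values in these cells are a description. Reads can be shared with other Akr1c genes of its cluster, so its level is uncertain. Pi16 lay at 3163 and 4321 CPM (log2 ratio -0.45), with overlapping sets of 2451 to 3998 and 1608 to 5433 CPM, and its ratio was -0.15 without WT4_p2. The other 5 rule genes had log2 ratios from -0.13 for Dpp4 to 0.21 for Fndc1. Left out of the choice, Sema3c lay at 1191 and 1289 CPM, Fndc1 at 906 and 764 CPM, Smpd3 at 949.8 and 889 CPM and Anxa3 at 959 and 894 CPM, beside the left-out values of Pi16 and Dpp4 above. Meg3, a maternally expressed non-coding RNA, had 44 UMIs in KO and 1 in WT (log2 ratio 2.86, 1.19 to 9.08), and Selenom, Vkorc1, Pcbp2 and Tspan3 had log2 ratios of 2.31, 1.93, 1.89 and 1.62 with at most 4 UMIs in WT. These ratios moved in both directions. Without WT4_p2 they were 3.32, 3.53, 3.49 and 2.39 for Selenom, Vkorc1, Pcbp2 and Tspan3, the highest of all alternatives. The lowest were 1.22 for Selenom with a pseudocount of 100 CPM, 0.74 for Vkorc1 at a stromal minimum of 2%, 0.43 for Pcbp2 at 8% and 0.70 for Tspan3 in thinned cells, where Pcbp2 had 0.62. Meg3 had 1.15 at a P1 sum of at least 1, 1.58 at 2%, 3.87 without WT4_p3 and 4.15 at 8%.

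Apoe, the lipid carrier, lay at 2740, 1817, 2415, 2647 and 1673 CPM in the KO sets and 4825, 8150, 3788, 7227 and 9554 CPM in the WT sets. Every WT set was higher, and the log2 ratio was -1.68 (-1.90 to -1.47). P2 cells held 5606 and 15066 CPM, P3 cells 7319 and 10406 CPM and lymphocytes 1310 and 1844 CPM, so Apoe was lower in KO in each class. Clec3b, which encodes tetranectin, lay at 1208 to 1604 CPM and 2211 to 2914 CPM in P1 (log2 ratio -0.92, -1.25 to -0.61). The endoplasmic reticulum chaperone Hsp90b1 had a log2 ratio of -0.91 (-1.25 to -0.58), its cytosolic relative Hsp90ab1 of -0.63 (-1 to -0.26) and the laminin chain Lamb1 of -0.86 (-1.27 to -0.46). Rnase4, which overlaps Ang on the same strand, Eif4b, Eif4g2 and the predicted gene Gm10801 had log2 ratios from -1.02 to -0.51, and the interval of Eif4g2 held 0. Eif4b had 0.02 at a stromal minimum of 8% and Eif4g2 0.32 in thinned cells.

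**Figure D4:**
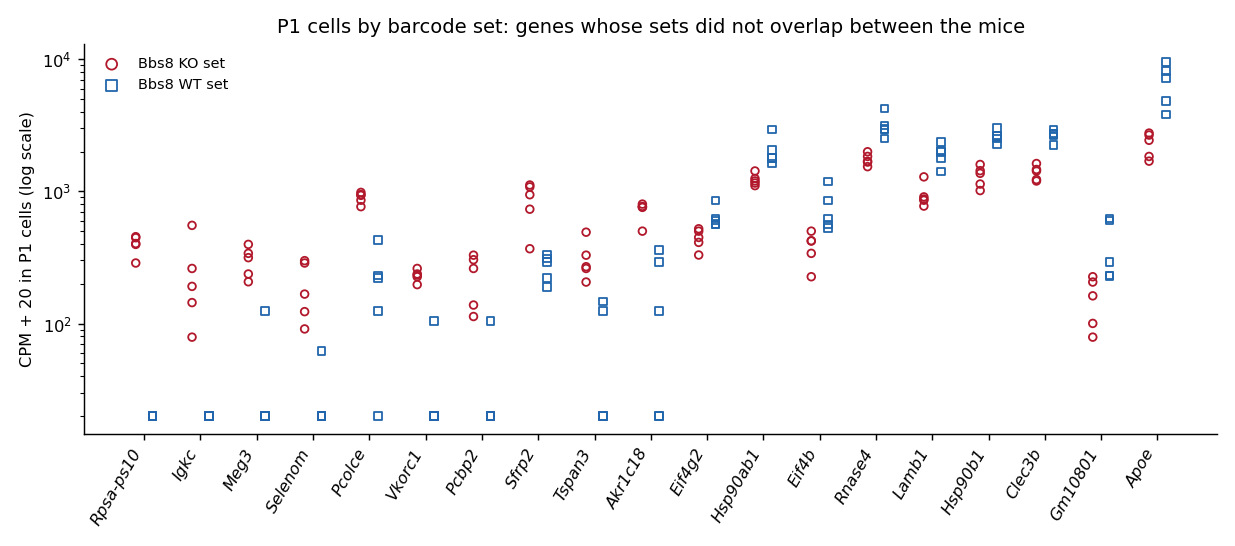
CPM + 20 (log axis) in P1 cells of each of the 5 KO sets (red circles) and 5 WT sets (blue squares), for 10 genes with the highest and 9 with the lowest pooled ratio among those whose sets did not overlap. Sets at 0 UMIs lie at 20; Apoe ranges from 1673 to 2740 CPM in KO and from 3788 to 9554 CPM in WT.

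T and B cell transcripts were also higher in KO P1 cells, as they were in KO P2 and P3 cells. The T cell list summed to 485 CPM (294 to 675 over sets) in KO and 81.5 CPM (0 to 127) in WT, with 14 of 15 genes detected and Cd4 at 0. Its log2 ratio was 2.57, 3.62 without WT4_p2 and 0.82 in thinned cells. The B cell list summed to 2324 CPM (1859 to 3445) and 1019 CPM (291 to 1494), with 14 of 15 genes detected and Cd79a at 0. The log2 ratio of this list was 1.19, 2.21 in thinned cells and 0.71 with at least 200 genes per cell. Igkc, the kappa light chain constant region, had 35 UMIs in KO P1 cells and 0 in WT, at least 3.56-fold higher by a limit of 3 counts over the mouse, and lay at 1816 and 934 CPM in lymphocytes. Rpsa-ps10, a pseudogene whose reads cannot be told from those of Rpsa, had 60 and 0 UMIs, at least 6.1-fold higher. It is no lymphocyte marker, and it differed in every class, at 402 and 6.15 CPM in P2, 418 and 43.4 CPM in P3 and 957 and 23.3 CPM in lymphocytes. P2 cells held 613 and 252 CPM of the T cell list and P3 cells 388 and 173 CPM. Of the B cell list, P2 cells held 3098 and 1230 CPM and P3 cells 3316 and 1127 CPM. Lymphocytes were 1761 of 8985 cells in KO and 99 of 1929 in WT. The macrophage list summed to 671 and 938 CPM, with 14 of 15 genes detected, a log2 ratio of -0.48 (-0.99 to 0.05) that was 1.51 without WT4_p2 and had the opposite sign under 6 alternatives in all, at 0.35 to 1.63. At least 2 UMIs of an immune, endothelial, mural and epithelial panel were found in 35 KO members (11.7%) and 6 WT members (6.19%), and without these cells the T cell list had a log2 ratio of 2.77, the B cell list 1.43 (1.19 with them), the fibrogenic sum below 0.04 and Apoe -1.83. Pericyte and smooth muscle genes went the other way, with 49.7 CPM (8 UMIs, 0 to 88.4 CPM over sets) in KO and 245 CPM (12 UMIs, 0 to 603) in WT P1 cells. Their log2 ratio was -2.30 (-3.79 to -0.89), from -2.90 to -1.46 over all alternatives, with 7 of 12 genes detected and Notch3, Tagln, Cnn1, Des and Higd1b at 0. The part of RNA of these other cell types in the other differences was not tested.

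The summed fibrogenic matrix genes differed little between P1 cells of the mice. The list summed to 92080 CPM (86586 to 95787 over sets) in KO and 89769 CPM (77289 to 97611) in WT, a log2 ratio of 0.04 (-0.01 to 0.09). Of 16 genes with at least 30 UMIs, 1 was at least 2-fold higher, against 7.78% of all genes, and 0 were 2-fold lower, against 4.32%, with a median of 0.13 beside -0.03. That gene, named after its value was seen, was Col6a3, a chain of type VI collagen, at 1279 to 2045 CPM in the KO sets and 291 to 1005 CPM in the WT sets (log2 ratio 1.29, 0.79 to 1.89). Col1a1, a chain of type I collagen, lay at 6777, 6960, 7139, 7485 and 8863 CPM in the KO sets and 4423, 3667, 5536, 5579 and 5400 CPM in the WT sets, without overlap, with a log2 ratio of 0.54. Its partner Col1a2 had 0.11 and Col3a1 -0.11. Fibronectin (Fn1) lay at 4635 and 5707 CPM (-0.30, -0.50 to -0.10) and periostin (Postn) at 1665 and 3037 CPM (-0.86, -1.16 to -0.57), both with overlapping sets. Postn also stood on the committed preadipocyte list. Cd9, the surface marker of fibrogenic APCs in obesity, had 11 and 4 UMIs, too few to compare. Col1a1, Col1a2 and Col3a1 also belong to the stromal rule and gave 68.8% and 69% of the list's UMIs, so their values are a description. The other 22 genes, summed after the data were seen, gave 28701 CPM (27524 to 30610 over sets) and 27824 CPM (25672 to 34674), a log2 ratio of 0.04 (-0.04 to 0.13), and the median of those with at least 30 UMIs was 0.16. The sum moved with the choices, to -0.25 at a stromal minimum of 8%, where Col1a1 turned to -0.01, and to 0.29 with TMM scaling, which moved all genes by 0.26.

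**Figure D5:**
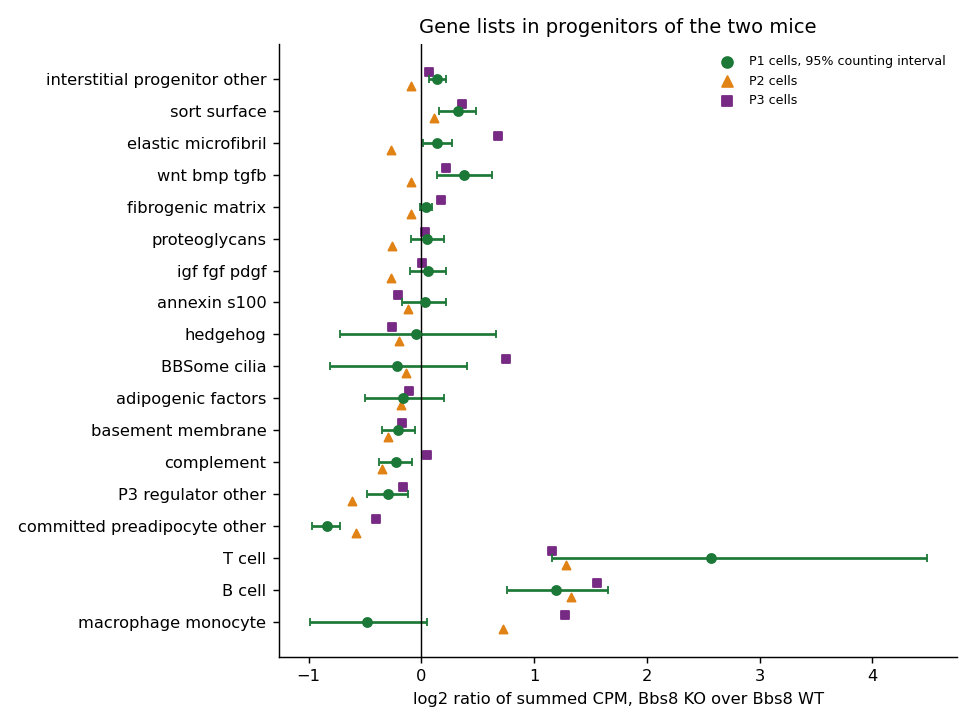
Log2 ratio of the summed CPM of gene lists, KO over WT, in P1 cells (circles with 95% counting intervals), P2 cells (triangles) and P3 cells (squares). In P1 cells the committed preadipocyte genes lie at -0.84, the fibrogenic genes at 0.04 and the T cell genes at 2.57.

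Genes of committed preadipocytes were, in sum, lower in KO P1 cells. Their sum was 9345 CPM (7314 to 10587 over sets) against 16755 CPM (14670 to 20771), a log2 ratio of -0.84 (-0.97 to -0.72), and the sets did not overlap. Of 9 genes with at least 30 UMIs, 1 was 2-fold lower (Apoe), against 4.32% of all genes, and the median was -0.53. Apoe alone gave 2280 and 7338 CPM of these sums, and without it, an alternative added after the data were seen, the log2 ratio was -0.41. The sum was also lower in P2 (-0.58) and P3 cells (-0.40). Of the surface markers used in sorting, Ly6a lay at 3378 to 4155 CPM in the KO sets and 1166 to 3116 CPM in the WT sets, without overlap (log2 ratio 0.70, 0.41 to 1). By the values given above, Ly6a was higher in KO in P2 and P3 cells as well. The list of surface markers as a whole had 0.32 (0.16 to 0.48) with 0 of 8 genes past 2-fold and a median of 0.28. The Wnt, BMP and TGF-beta list had 0.38 (0.14 to 0.63), with 1 of 7 genes 2-fold higher, against 7.78% of all genes, and a median of 0.02. That gene was Sfrp2, at 808 and 224 CPM of sums of 4468 and 3424 CPM, and without it, also added later, the ratio was 0.19. In this list Tgfbr2, a TGF-beta receptor, had 0.69 (0.12 to 1.34) without overlap of the sets. Microfibril genes had 0.14 (0.01 to 0.27) and a median of 0.12, with Mfap5 at 0.80 (0.42 to 1.22), Fbln2 at -0.97 (-1.47 to -0.50) and Fbln5, the 1 of 13 that was 2-fold lower, at -1.46 (-2.28 to -0.79). Basement membrane genes had -0.21 (-0.35 to -0.06) and complement genes -0.23 (-0.38 to -0.08), with medians of -0.26 and -0.28, and both sums turned with TMM scaling, to 0.05 and 0.02. The other interstitial progenitor genes had 0.14 (0.07 to 0.22), a median of 0.24, and a sum of -0.004 at a stromal minimum of 2%. Of 22, 1 was 2-fold higher, against 7.78% of all genes. It was Ly6c1, a relative of Ly6a, at 1915 to 2202 CPM in the KO sets and 201 to 1457 CPM in the WT sets, and reads of Ly6 genes can be shared.

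Of the genes of the BBSome and ciliary transport 0 of 28 had at least 30 UMIs in P1 cells. Of 16 Hedgehog genes 11 were in the deposited counts, and 1 of the 11 had at least 30 UMIs. Ttc8, the gene called Bbs8, had 0 UMIs in P1 cells of both mice. Over all cells it had 5 UMIs in WT (6.98 CPM, 2.27 to 16.3) and 0 of 3144195 UMIs in KO, where a level of up to 0.954 CPM could be missed. Across the 28 genes of the BBSome and ciliary transport, P1 cells had 93 and 33 UMIs, a log2 ratio of -0.22 (-0.81 to 0.40), and 22 genes had at least 1 UMI. Hedgehog genes had 79 and 25 UMIs, with a log2 ratio of -0.05 (-0.72 to 0.66). Gas1, a coreceptor of Hedgehog ligands, had the most, with 37 and 13 UMIs (229.9 and 265 CPM), against 10.6 and 0 CPM in lymphocytes. Smo, the signal transducer in the cilium, had 9 and 6 UMIs, Ptch1, receptor and target, had 1 and 0, and Gli3, a transcription factor of the pathway, had 8 and 0. Gli2, Hhip and Gpr161 had 0 UMIs in P1 cells. A difference within these intervals was not detectable at this depth.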

How the data were processed

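Seq-Well S3 libraries of iWAT SVF were given by the authors as a single table of UMI counts per gene and cell, deposited as whole numbers. According to the methods, reads were demultiplexed with bcl2fastq, aligned with STAR through dropSeqPipe to mm10 with a GENCODE annotation, and cells were filtered in Seurat by detected genes and mitochondrial share. An evening of depth was also described, and whether the table precedes it was not stated. Doublets were kept. Of 36 barcodes found in more than 1 set, 4 were found in at least 7 sets and held no P1 cell, and 2 of the others were shared between P1 cells. Of the other 32, 28 lay within sets of the same number. The methods describe a pair of arrays per sample and pooled amplification reactions within an array. The codes hold 2 numbers per genotype and p1 to p3 within a number, but what they stand for was not stated. The members, gene lists and alternatives were chosen with earlier results of these data known, and the lymphocyte threshold (at least 2 UMIs of a panel, under 2% stromal UMIs) after the data were seen.

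UMIs were summed per class and mouse in Python 3.11.15 (scipy 1.17.1), and ratios were taken as log2 of CPM + 20. Intervals are Clopper-Pearson for shares, Poisson for CPM and exact conditional for ratios, all at 95% and for counting error only. They were tested on simulated counts. A count of 0 was given a limit of 3 UMIs. No column was left unmapped. All cells together held 3144195 UMIs in KO and 715989 in WT, with medians of 251 and 278 per cell. The median mitochondrial share of P1 cells was 4.98% and 6.60%, and Gm42418, which takes up ribosomal RNA, held 13.5% and 14.3% of their UMIs.

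Genes were named by rule. They were the genes of the rule lists, the 10 highest and 10 lowest KO over WT ratios among genes whose sets did not overlap, the 15 highest and 10 lowest P1 ratios, and up to 6 members per list with the most UMIs in P1 cells. A few genes that met these rules are not reported here. Alternatives changed the stromal minimum, the P1 sum, the cells, the pseudocount, the scaling (edgeR 4.0.16, DESeq2 1.42.0, R 4.3.3) and the gene minimum, and left out each barcode set.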

Additional observations from a re-analysis of the deposited data

Results flagged for a closer look

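The values of the 5 barcode sets of a mouse were searched in 77 groups for a set that stands apart from the other 4 (a gap over 0.71 of the range), and 10 sets stood apart. For continuous values chance alone picks about 1 in 20 groups, or 3.85. A set with any UMI is always picked where the other 4 have 0, as for Meg3, Pcbp2, Vkorc1 and Selenom below. The 10 can therefore not be compared with 3.85. In KO P1 cells, Akr1c18 lay at 480 CPM in KO5_p3 and 737 to 781 CPM in the other sets. Lamb1 lay at 1267 CPM in KO5_p2 and 754 to 888 CPM elsewhere, and Cd55 at 178 CPM in KO6_p1 and 428 to 527 CPM elsewhere. In WT, 16.2% of thinned stromal cells were P1 in WT3_p2 against 7.23 to 9.82% in the other sets. Eif4g2 lay at 831 CPM in WT4_p3 and 543 to 603 CPM elsewhere, and Fabp4, a fatty acid-binding protein on the committed preadipocyte and endothelial lists, at 727 CPM in WT4_p3 and 0 to 169 CPM elsewhere. Meg3 (104 CPM in WT4_p3) and Pcbp2 (84.5 CPM), Vkorc1 (84.5 CPM) and Selenom (42.3 CPM), all in WT4_p2, were at 0 in the other WT sets, where 0 allows more than these levels in the sets of 3432 to 9629 UMIs.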

How the results depend on the processing

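The difference in the P1 share among P1, P2 and P3 cells was positive under every alternative run, from 8.79 points at a P1 sum of at least 3 to 19.8 at a stromal minimum of 8%. That of stromal cells was 0.214 at a minimum of 2%, 13.7 at 8% and 8.18 with at least 200 genes per cell, and that of all cells -0.235 at 8%. Genes 2-fold higher in KO, 2-fold lower, and 2-fold higher in P1 than in P2 and P3 numbered 39, 14 and 10 at 8%, 11, 9 and 6 after thinning, 23, 14 and 15 with a pseudocount of 100 CPM, 9, 2 and 12 with at least 100 UMIs and 1684, 900 and 78 with at least 1 UMI. The first and second numbered 117 and 16 with TMM scaling, and the second 25 with DESeq2 size factors. The fibrogenic sum was -0.25 at 8%, -0.02 at a P1 sum of at least 1, 0.10 without Pi16 in the rule, 0.11 after thinning, 0.29 with TMM and 0.17 with DESeq2. Among values whose interval did not hold 0, signs turned for the interstitial list at 2% (-0.004), for complement (0.40), Eif4b (0.02) and Col1a1 (-0.01) at 8%, for complement (0.02) and basement membrane (0.05) with TMM and after thinning for Aspn (-0.12), Cd55 (-0.04), Creb5 (-1.11), Cxcl14 (1.35) and Nr2f2 (2.23). Among values whose interval held 0, 65 under alternatives had the opposite sign over 18 results. They include the fibrogenic sum under 3 alternatives, to -0.25 at the lowest, the macrophage list (0.35 to 1.63 under 6), Nxn (2.49 thinned), Angpt2 (1.57 without WT4_p2), Eif4g2 (0.32 thinned), Fabp4 (-1.18 at 8%), the cilia list (0.63 at 8%) and the epithelial list (0.34 without WT4_p2). Fewer cells or UMIs were left by the 8% minimum and by thinning, and beyond this the causes were not tested. The fibrogenic sum without the stromal rule genes, added after the data were seen, was 0.04. Of 1957 values over 86 results, 86 had the opposite sign, of which 11 belonged to a result whose interval did not hold 0, 65 to one whose interval did and 10 to the median over all genes, which has no interval.

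With each barcode set left out in turn, the 3 share differences ranged from 3.44 to 4.92 (stromal), -2.37 to -1.44 (all cells) and 11.6 to 14.6 points (P1, P2 and P3). The gene counts ranged from 53 to 116 (higher), 31 to 54 (lower) and 28 to 35 (P1), and the fibrogenic sum from 0.0017 to 0.09. No paired analysis was possible because the genotypes share no set number and the labels do not say what the numbers stand for. A gene at 0 in WT P1 cells may reach 61.2 CPM, so differences of low genes were not detectable at this depth.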

Other observations

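Regulators of adipogenesis were sparse in P1 cells, and 5 of 16 had at least 30 UMIs. Klf9, a transcription factor induced by glucocorticoids, lay at 137 CPM in KO and 448 CPM in WT (log2 ratio -1.58, -2.63 to -0.79), and the glucocorticoid receptor Nr3c1 at 255 and 81.5 CPM (1.44, 0.18 to 3.59), both with overlapping sets. Klf4 and Cebpd were higher in P1 than in P2 cells, Klf4 at 367 and 591 CPM against 85.7 and 178 CPM and Cebpd at 323 and 183 CPM against 109 and 67.7 CPM. In the insulin-like growth factor and FGF list, Igfbp7 lay at 391 and 713 CPM in P1, 1470 and 1864 CPM in P2 and 4272 and 3729 CPM in P3. Among proteoglycans, Ogn lay at 1597 and 1162 CPM in P1 cells, with KO sets above WT sets, and at 669 and 345 CPM in P2.

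The adipocyte list had 12 UMIs in KO and 0 in WT P1 cells, with 7 of its 12 genes at 0 in both mice, Adipoq, Plin1, Lep and Retn among them. The epithelial list had 8 and 6 UMIs, with 9 of 11 genes at 0, Epcam, Krt5, Krt8 and Krt14 among them. Genes of dividing cells summed to 715 and 408 CPM (log2 ratio 0.81, 0.12 to 1.57), endothelial genes to 938 and 652 CPM (0.52, -0.03 to 1.12) and Schwann cell genes to 348 and 163 CPM (1.09, 0.02 to 2.37), the last with 2 of 5 genes detected. Over all alternatives these log2 ratios ranged from 0.45 to 2.55 for dividing cells, -0.14 to 2.45 for endothelial genes and 0.60 to 2.71 for Schwann cell genes.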
